A study of Mus musculus with 4 samples.

Results

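The MHC class II presentation genes are the genes through which antigen-presenting cells load peptides onto class II molecules and show them to helper T cells. They were measured here in muscle progenitor cells of aged and young mice. The set was listed by name as H2-Aa, H2-Ab1, H2-Eb1, H2-DMa, H2-DMb1, H2-Oa, Cd74 and Ciita, and a gene was taken where a probe set of the array carried its symbol. Of the 8 listed genes, 7 were found, each with 1 probe set, among 19572 probe sets for 19505 genes; Cd74 was not analysed here. The series held 4 Affymetrix whole-transcript arrays of C57Bl/6 mice, 2 of aged animals (2 years) and 2 of young animals (5 weeks), with no other treatment or genotype in the labels. The cells came from collagenase-digested muscle and were sorted as double positive for the integrin chains CD29 (beta 1) and ITGA7 (alpha 7). How many animals stand behind an array is not given, and no label states that replicates were separate animals; p-values thus measure only the spread between these samples, which may be technical.

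A class II molecule is a pair of an alpha and a beta chain. In the mouse the I-A molecule is made from H2-Aa and H2-Ab1, and H2-Eb1 encodes the beta chain of I-E, which C57BL/6 mice cannot complete because their I-E alpha gene is defective. The new chains bind the invariant chain, which endosomal proteases trim to a remnant in the peptide groove; H2-DM, made from H2-DMa and an H2-DMb chain, then exchanges that remnant for antigen peptides, and H2-O, made from H2-Oa and H2-Ob, restrains H2-DM. Ciita encodes the coactivator that switches these genes on, through the RFX, NF-Y and CREB proteins bound to a shared promoter module of an X box and a Y box. Dendritic cells, B cells and macrophages carry class II constantly or on activation, and other cells can be induced to do so by interferon gamma.

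Promoter stretches are printed, with letters of this module marked, as a description. Whether they bear on the levels read on these arrays was not tested. The sequences are from the RefSeq promoter table of build GRCm38.p6, and positions count from the annotated transcript start, with the base before it at -1. Each run has 76 bases, 5′ to 3′ on the strand of the gene. Capitals mark the Y box core GATTGG, the X box core ACNNATGNT and, in H2-Aa, the CRE palindrome TGACGTCA. The palindrome lies where H2-Eb1, H2-DMb1, H2-DMb2 and H2-Ob have the end of the X box. H2-Aa lies at chr17:34287847-34287922 (minus strand), H2-Eb1 at chr17:34305757-34305832, H2-DMb1 at chr17:34153079-34153154, H2-DMb2 at chr17:34145108-34145183, H2-Oa at chr17:34092285-34092360 and H2-Ob at chr17:34238797-34238872 (all plus strand).
H2-Aa: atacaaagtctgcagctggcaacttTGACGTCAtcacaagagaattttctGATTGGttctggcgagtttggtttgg
H2-Eb1: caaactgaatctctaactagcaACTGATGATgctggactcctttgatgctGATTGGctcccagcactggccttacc
H2-DMb1: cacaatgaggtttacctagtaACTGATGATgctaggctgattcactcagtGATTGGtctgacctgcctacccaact
H2-DMb2: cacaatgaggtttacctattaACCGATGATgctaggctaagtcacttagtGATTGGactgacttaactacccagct
H2-Oa: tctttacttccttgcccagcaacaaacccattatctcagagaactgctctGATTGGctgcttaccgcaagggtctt
H2-Ob: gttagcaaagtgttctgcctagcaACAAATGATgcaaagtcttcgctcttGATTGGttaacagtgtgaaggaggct

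The Y box core began at -49 in H2-Aa, -60 in H2-Eb1, -62 in H2-DMb1, -91 in H2-DMb2, -44 in H2-Oa and -58 in H2-Ob. An X box core began 28 bases before it in H2-Eb1, 29 in H2-DMb1, 29 in H2-DMb2 and 26 in H2-Ob. The letters of the motifs were settled with these promoters in view. Among all 32851 promoters of 300 bases, searched on both strands, 16.1% held GATTGG, 8.63% ACNNATGNT and 1.79% TGACGTCA; the motifs do not overlap each other in the runs above. An X box core followed on the same strand by a Y box core 20 to 40 bases later occurred in 21 promoters (0.0639%) of 19 genes, 5 of them class II genes (H2-Eb1, H2-Eb2, H2-DMb1, H2-DMb2 and H2-Ob). Neither promoter of H2-DMa had the pair. On the strand of the gene, H2-Aa had no match to ACNNATGNT, and H2-Oa had a match neither to these letters nor to the CRE. The letters are a narrow core, so a missing match does not show that a promoter lacks an X box. H2-Ab1 and Ciita had no entry among the promoters.

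The classical chain genes H2-Aa, H2-Ab1 and H2-Eb1 were read higher on both aged arrays than on either young array, by 2.32 to 2.77 log2 units, whereas the loading genes H2-DMa and H2-DMb1 differed by under 1 unit with overlapping ages, and H2-Oa and Ciita by under 0.5. All 7 measured genes had positive differences (aged minus young), with a median of 0.89 beside -0.0013 over all tested probe sets. None of the 7 passed the limma test at an adjusted p under 0.05, nor did any probe set on the array (0%), the smallest adjusted p being 0.343. Without adjustment 3 of the 7 genes were higher in aged cells at p under 0.05, a call that 3.36% of all probe sets met. Both aged arrays lay above both young arrays for 4 of the 7, against 18.2% of all probe sets. With 2 arrays against 2 an exact permutation test of 1 gene cannot go below 0.333. The table is on the log2 scale, but its values run up to 19.4, which a stretched variant of the normalization could give, so no difference is turned into a fold.

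H2-Aa, the alpha chain of I-A, was read at 10.96 and 11.01 on the aged arrays and at 9.79 and 7.55 on the young arrays (replicates 1 and 2 in this order throughout). The aged arrays almost coincided and the young arrays lay 2.24 apart. The means were 10.98 ± 0.031 (SD, n = 2) and 8.67 ± 1.59 (SD, n = 2). The difference was 2.32 ± 0.72 (SE, 95% interval 0.55 to 4.08; unadjusted p of 0.0186 and adjusted p of 0.581 in limma).

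H2-Ab1, the beta chain that pairs with H2-Aa, was read at 9.41 and 11.08 in aged and at 8.97 and 6.09 in young cells. The ages did not overlap, but the closest arrays, aged replicate 1 and young replicate 1, were 0.45 apart. The difference was 2.72 ± 1.02 (SE, 95% interval 0.21 to 5.22; adjusted p of 0.653 in limma). Young replicate 2 read H2-Ab1 under the intron control median of that array (6.62), which serves as a background level, so the size of the difference is uncertain at its low end.

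H2-Eb1, the I-E beta chain, was read at 10.99 and 12.34 in aged and at 10.16 and 7.62 in young cells. Its difference was 2.77 ± 0.89 (SE, 95% interval 0.57 to 4.97; adjusted p of 0.602 in limma). The order of the arrays was the same as for H2-Aa and H2-Ab1: young replicate 2 lowest, then young replicate 1, aged replicate 1 and aged replicate 2. Averaged over the 3 chains the arrays stood at 7.08, 9.64, 10.45 and 11.48 in that order, so that the gap between the young arrays exceeded the step from young replicate 1 to either aged array.

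**Figure D1:**
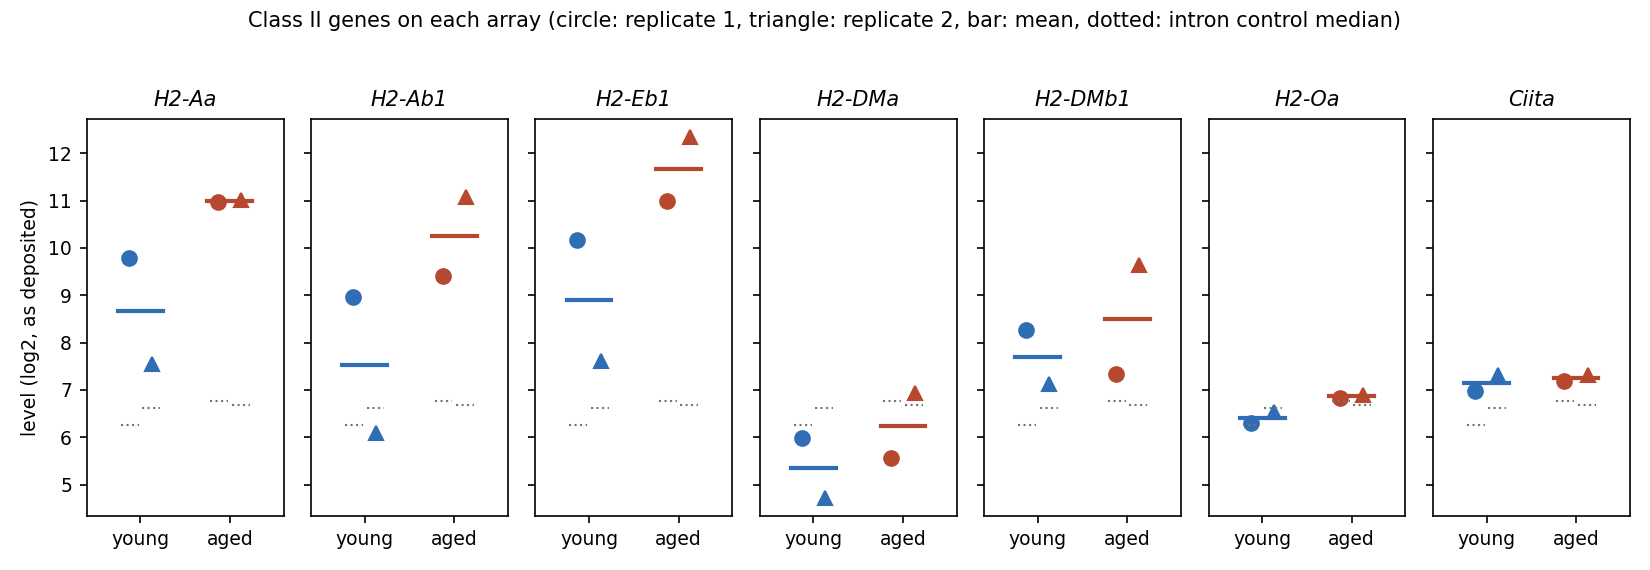
Level on each array (log2, as deposited) of the 7 measured class II genes; young arrays are blue, aged arrays red, circles replicate 1, triangles replicate 2, bars group means, and dotted lines the intron control median of the array. The 3 classical chains separate by age with young replicate 2 lowest, while H2-DMa, H2-DMb1 and Ciita overlap and H2-DMa and H2-Oa lie near or below the dotted lines.

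The size of these differences moved with single arrays. With young replicate 2 left out, the differences were 1.20 for H2-Aa, 1.28 for H2-Ab1 and 1.50 for H2-Eb1, and 2 members were higher at an unadjusted p under 0.05. Without young replicate 1 they were 3.44, 4.16 and 4.05 and the count was 4. Without aged replicate 2 they were 2.30, 1.88 and 2.10 and the count was 0; without aged replicate 1 they were 2.34, 3.55 and 3.45 and the count was 3. Array quality, read as how well exon controls separate from intron controls, was 0.792 and 0.819 on the aged and 0.849 and 0.823 on the young arrays, and with this quality value as a covariate the differences of these chains were 3.63, 5.37 and 5.04 (adjusted p of 0.936, 0.804 and 0.804 in limma, on 1 residual degree of freedom). The sign of each of the 3 chains was positive in every alternative run, that covariate included.

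**Figure D2:**
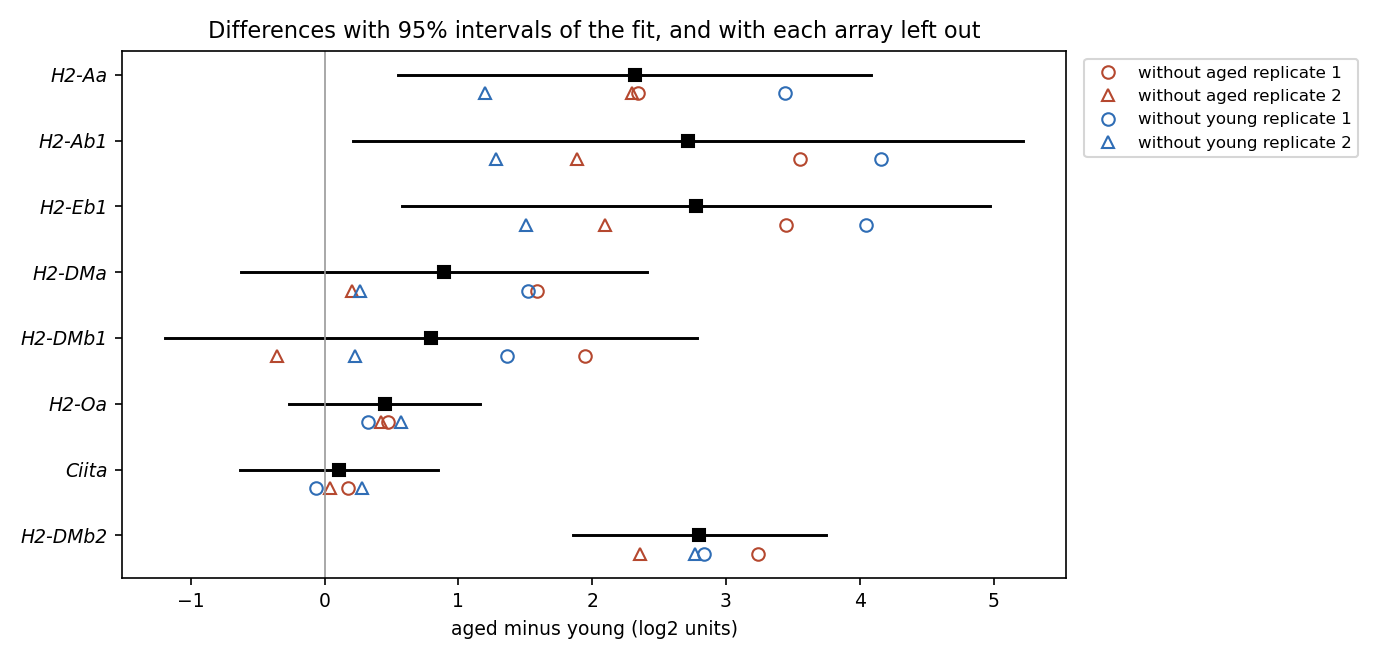
Difference between aged and young arrays (log2 units) of the 7 members and of H2-DMb2; squares are the fitted difference, lines its 95% interval, open symbols the difference with 1 array left out. The intervals of H2-Aa, H2-Ab1, H2-Eb1 and H2-DMb2 lie above 0, the values without young replicate 2 fall to 1.20, 1.28 and 1.50 for the 3 chains, and H2-DMb2 stays between 2.36 and 3.24.

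The loading genes among the members did not separate the ages. H2-DMb1, a beta chain of H2-DM, was read at 7.34 and 9.65 in aged and at 8.27 and 7.13 in young cells, with aged replicate 1 between the young arrays. Its difference was 0.80 ± 0.81 (SE, 95% interval -1.19 to 2.78; adjusted p of 0.887 in limma), and leaving out an aged array gave -0.36 (replicate 2 out) or 1.95 (replicate 1 out). H2-DMa, the alpha chain of H2-DM, was read at 5.55 and 6.93 in aged and at 5.98 and 4.73 in young cells, above the intron control median on 1 array only (aged replicate 2). Its difference was 0.89 ± 0.61 (SE, 95% interval -0.62 to 2.41; adjusted p of 0.822 in limma), and it was 0.20 or 0.27 with replicate 2 of the aged or young cells left out, and 1.58 or 1.52 with replicate 1 left out. With the quality covariate these differences were 2.83 for H2-DMb1 and 2.44 for H2-DMa. The interval of H2-DMb1 reaches the fitted differences of all 3 classical chains. That of H2-DMa reaches the one of H2-Aa but not those of H2-Ab1 and H2-Eb1. The intervals of the 3 chains overlap both, and no contrast between genes was tested.

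H2-Oa, the alpha chain of the H2-DM inhibitor H2-O, was read at 6.84 and 6.89 in aged and at 6.30 and 6.54 in young cells. Its ages did not overlap, but every reading lay within 0.21 of the intron control median of its array, where a level is hardly measured. The difference was 0.45 ± 0.29 (SE; adjusted p of 0.804 in limma), while the intron controls themselves had a median difference of 0.23. Its partner H2-Ob was below that median on every array and differed by 0.58 ± 0.40 (SE).

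Ciita, the coactivator that switches the class II genes on, was read at 7.19 and 7.32 in aged and at 6.98 and 7.32 in young cells. The readings overlapped, and all 4 lay 0.42 to 0.73 above the intron control median. The difference was 0.11 ± 0.30 (SE, 95% interval -0.63 to 0.85; adjusted p of 0.966 in limma). Its sign turned without young replicate 1 (-0.06) and with the quality covariate (-0.0091). The 95% interval of Ciita holds no difference as large as the fitted ones of the 3 classical chains. The range of this probe set above background is small. The intervals of H2-Aa, H2-Ab1 and H2-Eb1, which begin at 0.55, 0.21 and 0.57, overlap that of Ciita. Whether Ciita differs from the chains was not tested.

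H2-DMb2, the gene of the other H2-DM beta chain, was not among the members but stood in a list of further class II genes, and it was the class II gene with the smallest p. It was read at 9.52 and 10.41 in aged and at 7.20 and 7.13 in young cells. The ages did not overlap, and the young arrays almost coincided. The difference was 2.80 ± 0.38 (SE; unadjusted p of 0.000384 and adjusted p of 0.386 in limma), and it ran from 2.36 to 3.24 with each array left out. H2-DMb1 and H2-DMb2 are close copies of each other, and whether their probes tell them apart is unknown here, so both values are uncertain. In this pair, set side by side after the values were seen, H2-DMb2 minus H2-DMb1 was 2.19 and 0.76 on the aged and -1.07 and 0.0049 on the young arrays, a shift of 2.01. Their promoters, printed above, hold the X and Y box cores at the same spacing of 29 bases. H2-Eb2, a further beta chain gene, was below the intron control median on every array and differed by -0.26 ± 0.32 (SE).

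The class II genes of the mouse lie side by side in the H2 complex, interleaved with genes of class I peptide supply. In the RefSeq order of GRCm38.p6, 15 genes run from H2-Oa to H2-Eb2, of which 14 were measured, a stretch chosen for display after the values were seen. Of these 14, 13 had positive differences, 6 were higher at an unadjusted p under 0.05 (3.36% of all probe sets) and none was lower, and 8 had both aged arrays above both young ones (18.2% of all). The 6 are H2-DMb2, Psmb8, Tap2, H2-Ab1, H2-Aa and H2-Eb1, which are also counted in other lists here, so they add no separate evidence. The class I supply genes between H2-DMb1 and H2-Ob differed by 1.09 ± 0.51 (SE) for Psmb9, 0.63 ± 0.43 for Tap1, 1.35 ± 0.34 for Psmb8 and 1.41 ± 0.37 for Tap2. Tap2 was below the intron control median on both young arrays, so the size of its difference is uncertain. Brd2, a chromatin reader gene in the same stretch that is not an antigen presentation gene, differed by 0.12 ± 0.29 (SE). The largest differences of the stretch were those of H2-DMb2, H2-Eb1, H2-Ab1 and H2-Aa.

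**Figure D3:**
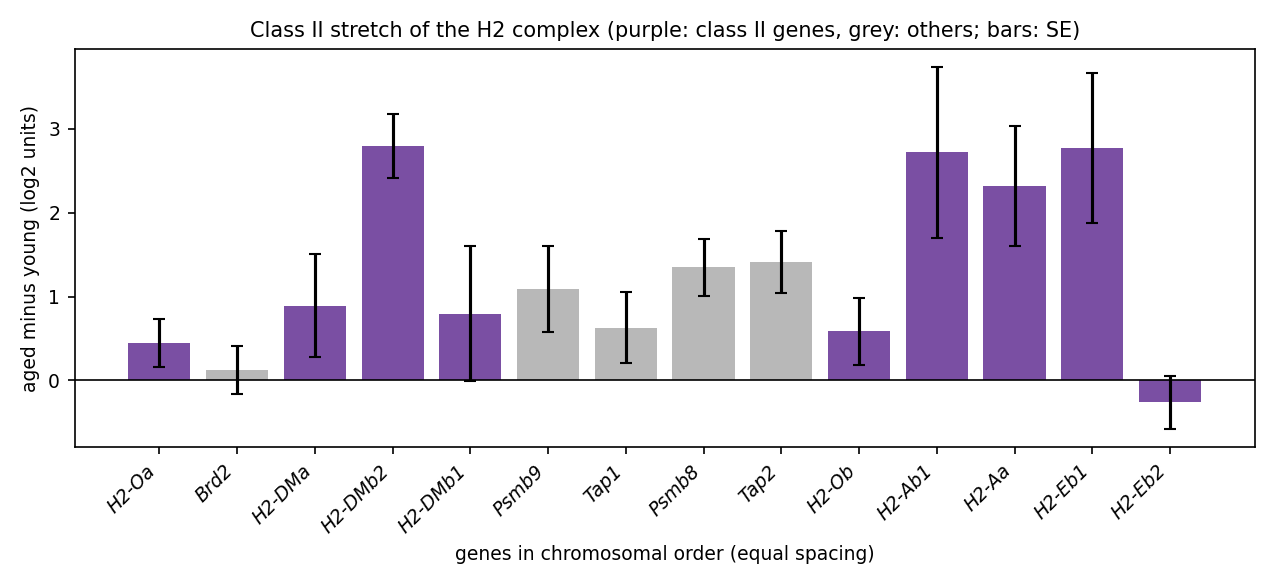
Difference between aged and young arrays (log2 units, bars with SE) for the 14 measured genes from H2-Oa to H2-Eb2 in chromosomal order, with class II genes in purple and others in grey. Differences of 2.32 to 2.80 stand at H2-DMb2, H2-Ab1, H2-Aa and H2-Eb1, with smaller positive values between them and -0.26 at H2-Eb2.

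Genes for the factors of the class II promoter module gave mostly negative differences. Of 10 measured genes for RFX, NF-Y, CREB and the acetyltransferases that Ciita recruits, 3 had positive and 7 negative differences, with a median of -0.26, and none reached an unadjusted p under 0.05 in either direction. Nfyc, an NF-Y subunit, differed by -0.38 ± 0.30 (SE), and Crebbp, an acetyltransferase gene, by 0.27 ± 0.41 (SE). The sign of Crebbp turned without young replicate 1 and with the quality covariate.

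Among 10 measured genes that act on Ciita or on its induction by interferon gamma, 9 had positive differences (median 0.40). At an unadjusted p under 0.05, 2 were higher (3.36% of all probe sets). Spi1, encoding PU.1, a transcription factor of myeloid and B cells, was read at 7.50 and 7.90 in aged and at 5.66 and 4.94 in young cells. Both young readings lay below the intron control median and both aged readings above it. The difference was 2.40 ± 0.37 (SE; adjusted p of 0.386 in limma). Irf4, a transcription factor of lymphocytes and dendritic cells, differed by 0.82 ± 0.30 (SE) but was below the intron control median on every array, and it lost that call with the replicate block, with the quality covariate and with any 1 array left out. Ifng itself was below it on every array too. Among 6 genes known to repress Ciita or its induction, 3 had positive and 3 negative differences and none reached an unadjusted p under 0.05; Bhlhe40 differed by 0.74 ± 0.37 (SE) and Myc by 0.37 ± 0.29 (SE).

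Genes of endosomal processing pointed the other way, with the exception of Ctss. Of 9 measured proteases, reductase and inhibitor genes, 8 had negative differences (median -0.40), 1 was higher and 2 were lower at an unadjusted p under 0.05, beside 3.36% and 3.99% of all probe sets. Ctss, encoding cathepsin S, the protease that trims the invariant chain in professional antigen-presenting cells, was read at 8.91 and 8.78 in aged and at 7.35 and 7.49 in young cells. The arrays of each age lay close together, and the difference was 1.43 ± 0.29 (SE; adjusted p of 0.452 in limma), from 1.36 to 1.49 with each array left out. Ctsh, encoding cathepsin H, was read at 10.97 and 10.14 in aged and at 12.47 and 12.45 in young cells, a difference of -1.91 ± 0.37 (SE; adjusted p of 0.452 in limma). Sppl2a, encoding the membrane protease that clears the last stub of the invariant chain, differed by -0.86 ± 0.33 (SE; adjusted p of 0.659 in limma). Sppl2a lost its unadjusted call under most of the alternatives, among them the repeated quantile normalization, the dim filter, the trended prior and the replicate block, whereas Ctsh kept it in all of them.

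Of 9 measured genes of class II turnover and of the ligands that accompany antigen display, 6 had positive differences (median 0.32). At an unadjusted p under 0.05, 2 were higher (3.36% of all probe sets). Cd86, a costimulatory ligand of T cells, was read at 6.95 and 8.26 in aged and at 6.46 and 4.59 in young cells, the same order of arrays as the classical chains. Its difference was 2.08 ± 0.73 (SE; adjusted p of 0.609 in limma), and 1.15 without young replicate 2. Cd274, encoding the inhibitory ligand PD-L1, was read at 7.40 and 8.54 in aged and at 6.93 and 5.73 in young cells, a difference of 1.64 ± 0.56 (SE; adjusted p of 0.605 in limma), and 1.04 without young replicate 2. Both genes read below the intron control median on young replicate 2, so the sizes of their differences are uncertain, and both lost the unadjusted call when replicate 2 of either age was left out. These further pathway lists hold 47 measured genes with H2-DMb2, H2-Ob and H2-Eb2. Of the 47, 6 were higher and 2 lower at an unadjusted p under 0.05, beside 3.36% and 3.99% of all probe sets. After adjustment 0 passed.

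For comparison, 7 of 10 measured class I presentation genes had positive differences (median 0.79), and 3 were higher at an unadjusted p under 0.05: Psmb8, Tap2 and H2-K1 (0.95 ± 0.31, SE). Over all probe sets, 3.36% were higher at that p. Of 13 measured targets of interferon gamma, 10 were positive (median 0.31) and 2 were higher at that p, namely Irgm1, a GTPase of intracellular defence, with 1.87 ± 0.28 (SE), and Gbp2 with 1.04 ± 0.41 (SE). Gbp2 lost that call under median centring, the dim filter, the trended prior and other alternatives. Whether the class II genes differ more than these lists was not tested.

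The sorted samples were checked for markers of other cells, since class II genes are known from leukocytes. Itga7 and Itgb1, the genes of the sorted proteins, and Pax7, a satellite cell factor, were above the intron control median on all 4 arrays and differed by -0.14 ± 0.33, -0.64 ± 0.37 and 0.12 ± 0.51 (SE). The sign of Itga7 turned when replicate 1 of either age was left out and with the quality covariate, and that of Pax7 when replicate 2 of either age was. Of all 14 satellite cell markers, 5 had positive and 9 negative differences (median -0.15), and none reached an unadjusted p under 0.05. Their mean level was 12.34 and 12.64 on the aged and 13.15 and 12.10 on the young arrays. Of 11 pericyte and smooth muscle markers, 7 had positive and 4 negative differences (median 0.20), and none reached that p. All 14 pan-leukocyte markers were measured, 13 with positive differences (median 1.58). Of these, 5 were higher at an unadjusted p under 0.05 (3.36% of all probe sets), and 8 had both aged arrays above both young ones (18.2% of all). Among the 5, Cd53, Hcls1 and Vav1 were above the intron control median on aged replicate 2 only. Their summed level, the log2 of the sum of the unlogged levels, was 13.69 and 14.15 on the aged and 12.69 and 11.13 on the young arrays. Ptprc, the pan-leukocyte CD45 gene, was read at 9.66 and 10.57 in aged and at 8.75 and 7.89 in young cells. Leukocyte markers therefore moved with the class II chains, also between the young arrays, and their part in the result was not tested. The 3 classical chains minus the mean of the leukocyte markers stood at 3.14 and 3.20 on the aged and at 2.72 and 1.14 on the young arrays. That mean includes 2 markers below the intron control median on every array, which hardly move. The remainder therefore does not measure class II levels apart from leukocytes. In bulk samples more cells of a type and more RNA per cell cannot be told apart.

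Markers of the cells that carry class II were in good part at background. Over all probe sets, 3.36% were higher in aged cells at an unadjusted p under 0.05. Of 13 measured B cell markers, 6 were below the intron control median on every array, among them Ms4a1, Pax5, Cd79b and Cd22; Cd79a and Cd37 were higher in aged cells at an unadjusted p under 0.05 (1.21 ± 0.30 and 2.45 ± 0.59, SE). The difference was positive for 12 of the 13, with a median of 0.22. The intron controls themselves had a median difference of 0.23, so signs of dim markers say little. The summed B cell level was 11.71 and 12.83 on the aged arrays against 12.09 and 10.58 on the young ones, and overlapped, but most of it came from Blnk, a signalling adaptor gene, read at 11.29 and 12.53 on the aged and 11.85 and 9.96 on the young arrays. The mean level of the list did not overlap, with 6.13 and 6.52 on the aged and 6.01 and 5.60 on the young arrays, the same order of arrays as the classical chains. Of 16 dendritic cell markers, 9 were below that median on every array, including Itgax, Flt3, Zbtb46, Xcr1 and Clec9a; Clec9a was the 1 dendritic marker higher at that p (1.23 ± 0.38, SE). The summed level was 12.80 and 13.03 on the aged and 12.49 and 12.41 on the young arrays. Of 16 measured macrophage markers, 10 were below it on every array, including Adgre1, Csf1r, Itgam and the C1q genes. The difference was positive for 13 of the 16 (median 0.39, beside 0.23 for the intron controls), and 3 were higher at an unadjusted p under 0.05. These were Aif1 (1.48 ± 0.33, SE) and Fcer1g (1.03 ± 0.31), both below that median on every array, and Cd14 (1.23 ± 0.29), above it on both aged and below it on both young arrays. The summed macrophage level was 10.79 and 10.32 on the aged and 10.03 and 9.84 on the young arrays.

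The neutrophil marker list separated the ages most widely among the lists plotted, but its members did not all move together. Of 11 measured, 9 had positive differences and 6 were higher at an unadjusted p under 0.05 (3.36% of all probe sets). The 4 genes Ltf, Csf3r, Mmp8 and Cxcr2 were below the intron control median on every array, although Csf3r is among those 6. The summed neutrophil level was 15.12 and 17.05 on the aged and 11.07 and 10.28 on the young arrays. The aged sums came mainly from the granule genes Mpo (14.44 and 16.11) and Elane (13.27 and 15.49), and Retnlg and Mmp8 had negative differences (-1.52 ± 1.02 and -0.55 ± 0.40, SE). Of 13 measured T and NK cell markers, 11 had positive differences and 8 had both aged arrays above both young ones (18.2% of all probe sets). At an unadjusted p under 0.05, 5 were higher (3.36% of all): Cd3d (2.21), Cd3g (2.57), Cd8b1 (2.18), Nkg7 (2.79) and Cd2 (1.12). Of these, Cd3d, Cd3g, Cd8b1 and Cd2 were below the intron control median on both young arrays. On aged replicate 1, Cd3d, Cd3g and Cd2 were below it too, at 5.85, 5.60 and 6.26. The summed level of the T and NK list was 10.56 and 12.00 on the aged and 9.91 and 9.88 on the young arrays.

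In the plasma cell list Jchain, the joining chain of secreted antibodies, was read at 9.12 and 11.99 on the aged and 4.66 and 3.97 on the young arrays, the latter below background, with an unadjusted p of 0.000545 and an adjusted p of 0.386 in limma. It was the 1 of 7 plasma cell markers higher at an unadjusted p under 0.05 (3.36% of all probe sets). Of the 7 differences 3 were positive, and 3 of the markers were below the intron control median on every array. The summed plasma cell level overlapped, with 15.17 and 15.89 on the aged and 15.65 and 15.26 on the young arrays. Most of it came from Xbp1, read at 15.10 and 15.76 on the aged and 15.58 and 15.22 on the young arrays. The sum therefore hardly reflects the other markers of the list. Of 10 measured markers of fibro-adipogenic progenitors, the connective tissue cells of muscle, 9 had negative differences. At an unadjusted p under 0.05, 3 were lower (3.99% of all probe sets). These were the collagen genes Col1a1 (-3.22 ± 0.45, SE), Col1a2 (-2.65 ± 0.46) and Col3a1 (-2.10 ± 0.49). The other negative differences were smaller, from -0.54 (Lum) to -0.0070 (Cd34), and Pi16 was positive (0.64). The part of these cell markers in the class II result was not tested. Endothelial markers set young replicate 2 apart: the mean level of 11 measured genes was 9.12 there, against 6.42 to 7.18 on the other 3 arrays. That array was also the lowest for each of the 3 classical chains and for the pan-leukocyte list.

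**Figure D4:**
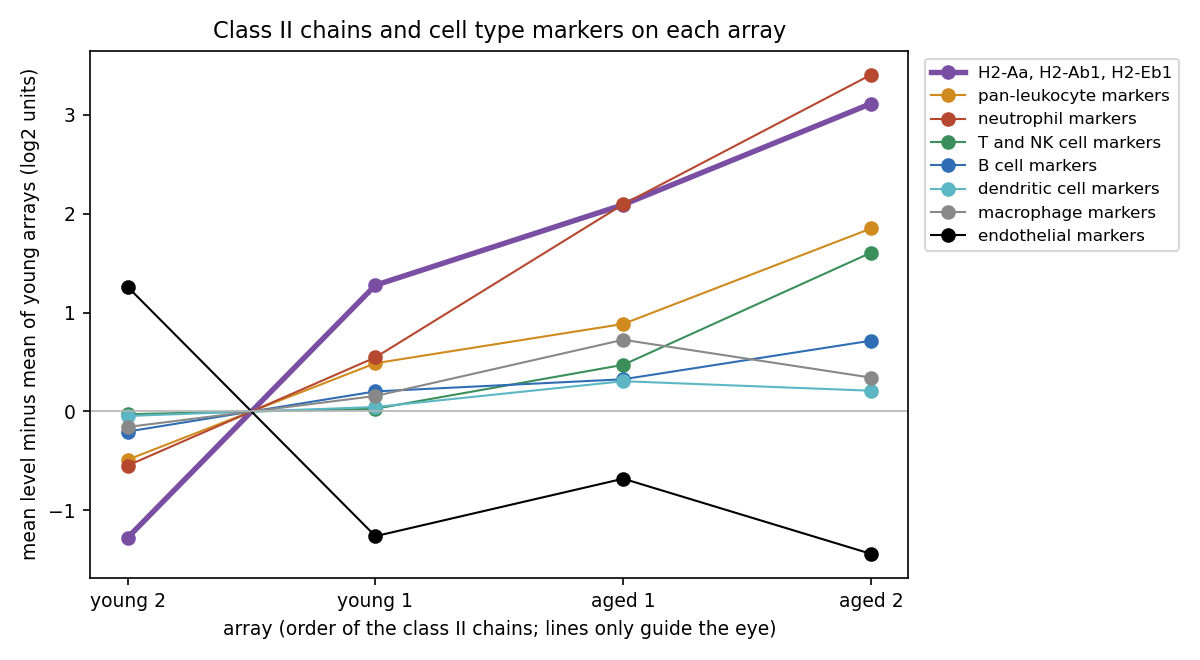
Mean level on each array, minus the mean of the young arrays (log2 units), of H2-Aa, H2-Ab1 and H2-Eb1 (thick purple line) and of 7 marker lists; lines only guide the eye. The class II chains run from -1.28 on young replicate 2 to 3.12 on aged replicate 2, the leukocyte and neutrophil lists follow the same order of arrays, the B cell, dendritic cell and macrophage lists span less, and the endothelial list is highest on young replicate 2.

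Genes with an array profile like that of the classical chains were sought by the root mean square distance, over the 4 arrays, of each gene's mean-centred levels from the average of H2-Aa, H2-Ab1 and H2-Eb1. The 5 nearest genes outside the members were Rhoh (0.243), a GTPase gene of blood cells, Osr1 (0.287), a transcription factor gene of muscle connective tissue, Grik3 (0.306), a glutamate receptor gene, Laptm5 (0.320), a lysosomal protein gene of leukocytes, and S100a9 (0.333), a calprotectin subunit gene of neutrophils. Rhoh was read at 10.05 and 11.36 in aged and at 9.43 and 7.35 in young cells, and Osr1 at 9.44 and 10.50 in aged and at 8.65 and 6.75 in young cells. The distances of the other members were 0.980 for H2-DMa, 1.13 for H2-DMb1, 1.50 for H2-Oa and 1.64 for Ciita, with 114, 276, 3760 and 9316 probe sets nearer to the chains. Only 4 arrays stand behind these distances.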

How the data were processed

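Levels of 4 arrays came as 1 table of 28846 entries, which the authors deposited on the log2 scale. RMA and the Transcriptome Analysis Console are named per the submitters' processing notes; versions and genome build are not given in the sources used. Values ran from 2.08 to 19.4. Medians of the tested probe sets were 6.71 to 6.80, and precision is limited by having 4 arrays. Probe sets with 1 gene symbol in the platform annotation (19572) were tested in R 4.3.3 with moderated linear models of limma 3.58.1 (two-sided, age group as the only term, no filter), with Benjamini-Hochberg adjustment over all of them and a threshold of 0.05. For genes with several probe sets (55) the one with the highest mean was used. Background was read from 5222 intron control probe sets, with medians of 6.76 and 6.68 on the aged and of 6.25 and 6.62 on the young arrays.

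Members, gene lists and tests were chosen with earlier results of these data known. The lists held 227 gene names, of which 210 were measured, 2 through a newer symbol. Named genes were the members, up to 4 genes per list with the smallest unadjusted p under 0.05 (otherwise the 2 with the highest mean), Itga7, Itgb1, Pax7 and the 5 genes nearest to the class II chains, a rule that would have included Cd74. Genes of the H2-Oa to H2-Eb2 stretch and members of marker lists named as lying below background were chosen after their values were seen. Alternatives were centring of each array on its median, quantile normalization repeated on the table, leaving out dim probe sets, trended and robust variance priors, the replicate block, testing against a difference of 1 log2 unit, array quality (exon against intron control separation) as a covariate, every entry of the table, averaged probe sets and leaving out each array. The test was checked on simulated data.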

Additional observations from a re-analysis of the deposited data

How the results depend on the processing

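The sign of H2-Aa, H2-Ab1, H2-Eb1, H2-DMa and H2-Oa was positive in every alternative run, and no member passed the adjusted threshold in any of them. The dim filter removed H2-DMa. The count of members higher at an unadjusted p under 0.05 was 3; it was 0 when a difference of 1 log2 unit was required, 5 with array quality as a covariate, 2 with every entry of the table tested, where H2-Ab1 lost the call (unadjusted p of 0.0610), and 0 to 4 with single arrays left out. The median of members was 0.89; it was 2.83 with that covariate, 1.56 under the dim filter, where H2-DMa drops out, and 0.42 to 1.95 with single arrays left out. Members with both aged arrays above both young arrays numbered 4 to 7 with single arrays left out, since fewer arrays are compared. The 8 further pathway genes at that p were 3 when 1 log2 unit was required. H2-DMb2, Spi1, Ctsh and Irgm1 kept their unadjusted call in every alternative; those of Sppl2a and Gbp2 were lost in most. For Sppl2a the unadjusted p was 0.0735 with repeated quantile normalization, 0.0600 under the dim filter, 0.0763 with the trended prior, 0.0674 with the replicate block and 0.0557 with every entry. For Gbp2 it was 0.0572 with median centring, 0.0568 under the dim filter, 0.0627 with the trended prior and 0.0667 with every entry. With the covariate the sign turned for Ciita (-0.0091), Crebbp (-0.17), Tek (-0.48) and Itga7 (0.33). With single arrays left out the range was -0.36 to 1.95 for H2-DMb1, -0.063 to 0.28 for Ciita, -0.39 to 0.10 for Itga7, -0.41 to 0.64 for Pax7, -0.22 to 0.76 for Crebbp, -0.23 to 0.67 for Tagln and -0.012 to 1.39 for Sdc4; the cause was not tested. Over all probe sets, 658 were higher and 780 lower at an unadjusted p under 0.05; these were 378 and 553 under the dim filter, which tests fewer, 494 and 469 with the covariate, and 80 and 79 when 1 log2 unit was required. The arrays share only replicate numbers across ages (correlation of same-numbered deviations over genes -0.051). With the replicate block 3 members were again higher at an unadjusted p under 0.05, H2-Aa had an adjusted p of 0.530, and 2 probe sets (Mpo and Elane) passed. Without young replicate 2, 1 probe set passed. Leaving out an array leaves 1 sample at an age, which is then assumed to vary like the other age.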
